A study of Mus musculus with 6 samples.

Results

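The tachykinin system was represented by 4 genes, Tacr3, Tacr1, Tac1 and Tac2, out of 24062 gene symbols with counts. Tacr3 and Tacr1 encode receptors and Tac1 and Tac2 encode peptide precursors. The set was selected on measured values: Tacr3 was 1 of the 4 genes past an adjusted p of 0.05 in the test of all genes between stress and control, and the others were taken as its family by symbol. Its stress against control values, and those of the other 3 genes, are therefore given as descriptions with no test.

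RNA came from the ventral dentate gyrus, the hippocampal entry region in a part often studied for emotion and stress, of male C57black 6 mice. There were 3 control libraries from animals not stressed and 3 libraries from animals given chronic restraint, a repeated confinement. No genetic change or drug is named for either group, and the labels do not give the animals' age, the duration of restraint or whether a library held 1 animal or several, so p-values measure the spread between these libraries. Total RNA was sequenced after removal of ribosomal RNA, and the libraries held 8305753 to 10107953 reads counted in genes.

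Tachykinins are short neuropeptides cut from larger precursors and released alongside classical transmitters. Tac1 gives substance P and neurokinin A, and Tac2 gives neurokinin B. Substance P acts mainly on the NK1 receptor encoded by Tacr1, and neurokinin B mainly on the NK3 receptor encoded by Tacr3. Both receptors couple to Gq proteins, which activate phospholipase C, release calcium from internal stores and raise neuronal excitability. In forebrain, Tac1 is abundant in striatal neurons and is also made by some inhibitory interneurons.

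The peptides share an ending that the receptors recognise, and the coding bases of that ending are shown because they are what makes the precursors one family. In each sequence below, read from the GENCODE M21 transcripts on GRCm38, the capitals mark the 15 bases that encode the shared ending, and the last 9 bases encode the signal for cleavage and amidation.

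Tac1 substance P site: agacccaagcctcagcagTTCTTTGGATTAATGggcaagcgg
Tac1 neurokinin A site: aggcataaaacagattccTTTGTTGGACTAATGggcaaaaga
Tac2 neurokinin B site: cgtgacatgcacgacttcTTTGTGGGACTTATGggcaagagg

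The substance P site lies on the plus strand at chr6:7556732-7556773, in exon 3 of 7 of the longest coding Tac1 transcript. The neurokinin A site begins in the same transcript and spans a splice junction, within chr6:7557743-7559139. The neurokinin B site also spans a junction, within chr10:127728476-127729154. Over the capitals, the neurokinin A and neurokinin B sites shared 13 of 15 bases, the 2 sites within Tac1 shared 12, and the substance P and neurokinin B sites shared 10. The substance P site was found in 3 of 4 annotated coding transcripts of Tac1 and the neurokinin A site in 2 of 4. Counts were deposited per gene, so the relative use of these transcripts was not measured.

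All 4 genes are annotated as protein-coding on the plus strand, and no annotated gene overlaps any of them. Tacr3 lies on chromosome 3 from 134829007 to 134934579, and Tacr1 on chromosome 6 from 82402334 to 82560104. Tac1 lies on chromosome 6 from 7554879 to 7565834, and Tac2 on chromosome 10 from 127724478 to 127731768.

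Markers of dentate granule neurons were present in every library, with none of the 12 at 0. Their summed level was 1284 to 1717 CPM in controls. In stress replicates 1 to 3 it was 894, 1508 and 1652 CPM, so stress replicate 1 was the lowest of the libraries. CPM is a gene's count scaled to a common library total of gene counts. Stress replicate 1 stood apart from the other libraries. Its chi-square per degree of freedom was 16.3 and 18.7 against stress replicates 2 and 3, which differed from each other by 2.97. It held 4735 CPM over 10 choroid plexus markers, against 25.8 to 34.1 CPM in the other 5 libraries, and 946 CPM over 11 striatal markers, against 194 to 215 CPM. Results are therefore given with and without it.

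Tacr3 was the member whose groups separated. It was at 7.59, 8.61 and 8.25 CPM in control replicates 1, 2 and 3, and at 2.57, 2.22 and 2.91 CPM in stress replicates 1, 2 and 3. The lowest control was well above the highest stress library, and each stress library lay near the others. The mean was 8.15 ± 0.519 CPM in controls and 2.56 ± 0.347 CPM in stress (SD, n = 3), a level 3.18-fold higher in controls. The log2 fold change was -1.65 (SE 0.19). It was -1.65 without stress replicate 1 as well, and leaving out each library in turn gave -1.74 to -1.55. In bulk tissue, fewer cells with the transcript and less transcript per cell cannot be told apart.

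**Figure D1:**
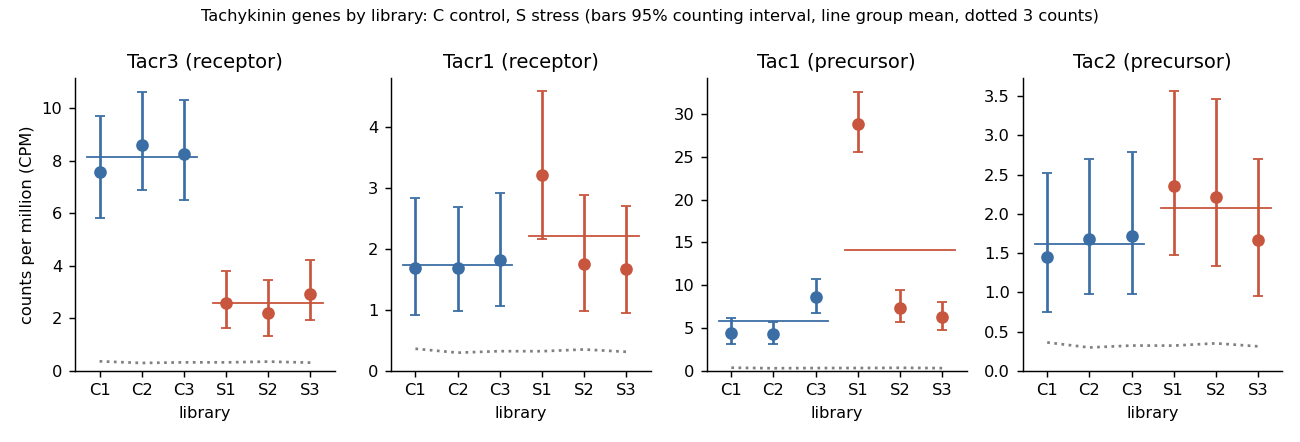
Level of each tachykinin gene in each library, in CPM, for control (C, blue) and stress (S, red) replicates. Points are libraries, bars are exact 95% Poisson intervals of the count, horizontal lines are group means and the dotted line is the level of 3 counts. Tacr3 sits between 7.59 and 8.61 CPM in controls and between 2.22 and 2.91 CPM in stress, while Tac1 and Tacr1 are highest in stress replicate 1.

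The counts behind Tacr3 were 63, 87 and 77 in controls and 24, 19 and 28 in stress. Exact 95% Poisson intervals, which cover counting error only, ran from 5.83 to 10.6 CPM over the controls and from 1.33 to 4.20 CPM over the stress libraries, so no control interval met a stress interval. The spread between controls, a coefficient of variation of 6.37%, was below the 11.5% that counting alone gives at that depth. In stress it was 13.5%, against 20.6% from counting. Spread between libraries beyond counting error was thus not detectable for Tacr3 within either group.

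Of the 4 genes, Tacr3 was the 1 whose groups did not overlap. Over all 14058 tested genes the groups did not overlap for 14.6%, 7.87% of them lower in stress and 6.74% higher. Genes past an adjusted p of 0.05 by edgeR's quasi-likelihood test made up 0.0285% of all tested, all of them lower in stress. Nothing is read from these shares for Tacr3, since that contrast chose it.

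Tacr1, the receptor for substance P, stayed near a single level in 5 libraries. It was at 1.69, 1.68 and 1.82 CPM in control replicates 1 to 3 and at 3.21, 1.75 and 1.66 CPM in stress replicates 1 to 3. Stress replicate 1 was the highest, and stress replicate 3 was the lowest of all 6, so the groups overlapped. The means were 1.73 ± 0.0799 CPM in controls and 2.21 ± 0.868 CPM in stress (SD, n = 3). In stress the coefficient of variation was 39.4%, where counting alone gives 22.2%, and in controls it was 4.62% against 25%. The log2 fold change of 0.37 (SE 0.32) became -0.017 without stress replicate 1. The counts were 14 to 17 outside that library and 30 within it. The 95% interval of the count in stress replicate 1, from 2.16 to 4.58 CPM, overlapped those of the other 5 libraries, which together ran from 0.922 to 2.92 CPM.

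Tac1, the precursor of substance P and neurokinin A, had the widest spread of the 4. It was at 4.46, 4.25 and 8.58 CPM in control replicates 1 to 3 and at 28.9, 7.35 and 6.23 CPM in stress replicates 1 to 3. Control replicate 3 lay above stress replicates 2 and 3, so the groups overlapped. The means were 5.76 ± 2.44 CPM in controls and 14.2 ± 12.8 CPM in stress (SD, n = 3), and the stress mean without replicate 1 was 6.79 CPM. The log2 fold change was 1.32 (SE 0.63) with all libraries and 0.24 without stress replicate 1. Among controls the coefficient of variation was 42.3%, where counting alone gives 13.7%, so the controls differed from each other in Tac1 by more than counting error.

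The Tac1 level in stress replicate 1 was 4.68-fold the mean of the other 5 libraries, and striatal markers were high in the same library. All 11 of the striatal medium spiny neuron markers in the files had their highest level there. Ppp1r1b, which encodes the dopamine-regulated phosphatase inhibitor DARPP-32, was at 139 CPM there against 19.4 to 23.9 CPM elsewhere. Penk, the enkephalin precursor of striatal output neurons, was at 165 CPM against 6.86 to 10.8 CPM. Pde10a and Rgs9 were 2.69-fold and 3.54-fold the mean of the other 5. Isl1, a transcription factor of developing striatal and cholinergic neurons, was at 0 in the other 5 libraries and 3.64 CPM in this one. Six3 was at 2.67 CPM there and 0 to 0.241 CPM elsewhere. All 5 CA3 pyramidal neuron markers in the files were also highest in stress replicate 1, with a sum of 271 CPM against 77.3 to 122 CPM elsewhere. The part of striatal, CA3 or choroid plexus RNA in the Tac1 value was not tested.

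**Figure D2:**
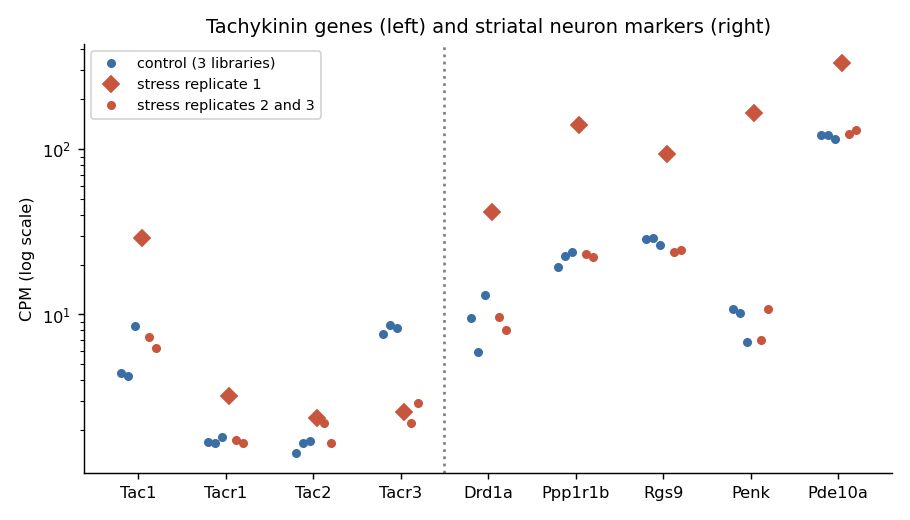
Levels in CPM on a log axis of the 4 tachykinin genes, left of the dotted line, and of 5 striatal neuron markers, right of it. Each point is a library, blue for control and red for stress, and the diamond is stress replicate 1. The diamond is the highest point for Tac1, Tacr1, Tac2 and each marker, and lies among the other stress libraries for Tacr3.

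The 5 tested genes whose profile over the 6 libraries lay nearest to that of Tac1 were Drd1a, Map3k15, Scn7a, Ubxn10 and Ace. Nearness was the Euclidean distance between log2 CPM values centred on each gene's mean, over 12497 genes compared, and it was 0.572 for Drd1a and 0.728 for Ace, against a median of 2.26. Drd1a, the D1 dopamine receptor carried by the Tac1-expressing striatal neurons, was at 9.51, 5.94 and 13.1 CPM in control replicates 1 to 3 and at 41.7, 9.68 and 8.10 CPM in stress replicates 1 to 3. Like Tac1, it was higher in control replicate 3 than in the other controls and highest in stress replicate 1. Each of the 5 genes had its highest level in stress replicate 1. They were picked for profiles near that of Tac1, so this likeness follows from the choice and no result is read from it.

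Tac2, the precursor of neurokinin B, was at 1.45, 1.68 and 1.72 CPM in control replicates 1 to 3 and at 2.35, 2.22 and 1.66 CPM in stress replicates 1 to 3. Stress replicates 1 and 2 lay above the controls and stress replicate 3 within them. The means were 1.61 ± 0.147 CPM in controls and 2.08 ± 0.366 CPM in stress (SD, n = 3). The log2 fold change was 0.37 (SE 0.27), and leaving out each library in turn gave 0.25 to 0.52. The counts were 12 to 22 per library, and the spread in each group, 9.13% in controls and 17.6% in stress, was below what counting alone gives, 25.8% and 22.9%.

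Tac2 is abundant in the medial habenula, a small nucleus near the hippocampus, and several markers of that nucleus were at or near 0. Chrnb4, a nicotinic receptor subunit enriched there, was at 0 in 2 libraries and at most 0.748 CPM. Pou4f1, a habenular transcription factor, was at 0 in 4 libraries and at most 0.233 CPM. Nhlh2, another habenular transcription factor, was at 1.17 to 2.03 CPM, and 5 of the 9 markers were highest in stress replicate 1. Among these, Slc5a7, the choline transporter, was at 8.55 CPM there and 0.623 to 1.75 CPM elsewhere, and Chat, which makes acetylcholine, was at 3.42 CPM there and 0 to 0.241 CPM elsewhere. The summed level of the 9 markers was 22.6 to 24.1 CPM in controls and 10.2 to 24.6 CPM in stress, and most of it in controls came from Lrrc55, a potassium channel auxiliary subunit gene, at 18.6 to 20.5 CPM. In stress replicates 1 to 3 Lrrc55 was at 8.13, 11.7 and 6.86 CPM, a log2 fold change of -1.12 (SE 0.17) with an adjusted p of 0.197 by edgeR. The part of habenular RNA in the Tac2 value was not tested.

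Measured against the floor, the members differed in how far they could be resolved. The floor was set at 3 counts, or 0.297 to 0.361 CPM depending on the library. The lowest count of Tac2 was 4 times that floor and that of Tacr1 4.67 times. Tacr3 was 6.33 to 9.33 times the floor in stress and 21.0 to 29.0 times in controls, and Tac1 was 12.3 times the floor or more in each library. The other tachykinin genes, Tacr2 for the NK2 receptor and Tac4 for hemokinin, were at or near the floor. Tacr2 had 0 to 5 counts per library and Tac4 had 0 in all 6, and neither passed the filter on low counts, while all 4 members did.

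Levels of different genes were compared per kilobase of annotated exon. In controls Tacr3 was highest, at 2.17 ± 0.138 CPM per kilobase, followed by Tac1 at 1.70 ± 0.718 and Tac2 at 1.17 ± 0.107. Tacr1 was far lower, at 0.267 ± 0.0123 CPM per kilobase. The ranges of Tacr3, 2.02 to 2.29, and Tac1, 1.25 to 2.52, overlapped, so their order does not exceed the spread. In stress the order was Tac1 at 4.16 ± 3.75, Tac2 at 1.51 ± 0.265, Tacr3 at 0.681 ± 0.0921 and Tacr1 at 0.340 ± 0.134 CPM per kilobase. Without stress replicate 1 the means were 1.998 for Tac1, 1.41 for Tac2, 0.681 for Tacr3 and 0.263 for Tacr1, in the same order. The ranges of Tac2 and Tacr3 in stress did not overlap. Those of Tacr3, 0.589 to 0.773, and Tacr1, 0.256 to 0.494, did not overlap either, but over coding length they did, at 1.63 to 2.15 and 1.36 to 2.63. The order in controls depended on the length used. Over coding length, which is 390 bases of the 3399 of annotated exon for Tac1, Tac1 led at 14.8 CPM per kilobase. Tacr3 followed at 6.01. Over the longest transcript Tac1 was also ahead in controls, at 2.92 against 2.17 for Tacr3, but their ranges overlapped.

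The balance of the receptor transcripts differed between the groups in the same libraries. Per kilobase, Tacr3 was 7.76, 8.83 and 7.82 times Tacr1 in control replicates 1 to 3. In stress replicates 1 to 3 it was 1.38, 2.19 and 3.02 times Tacr1. By coding length the ratios were 4.05 to 4.61 in controls and 0.720, 1.14 and 1.58 in stress replicates 1 to 3, so Tacr3 then lay below Tacr1 in stress replicate 1, and by either length the groups did not overlap. The lowest ratio, in stress replicate 1, joined a low Tacr3 to the highest Tacr1. In stress replicates 2 and 3 Tacr1 was near its control level, so there the lower ratio came with the Tacr3 level. This ratio rests on the Tacr3 contrast and is a description.

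Set beside 16 other Gq-coupled peptide receptor genes and the other tachykinin genes, 22 in all, Tacr3 ranked 3 per kilobase in controls and 9 in stress. Cckbr, a receptor for cholecystokinin, had the highest mean in controls, at 5.24 ± 0.432 CPM per kilobase. Trhr, the receptor for thyrotropin-releasing hormone and named here after its value was seen, followed at 5.13 ± 1.76. The range of Cckbr, 4.77 to 5.62, lay within that of Trhr, 3.10 to 6.30, so their order does not exceed the spread. Tacr1 ranked 14 in controls and 12 in stress. By coding length Trhr led in controls at 17.4 CPM per kilobase, Tacr3 ranked 5 in controls and 9 in stress, and Tacr1 ranked 11 and 10.

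**Figure D3:**
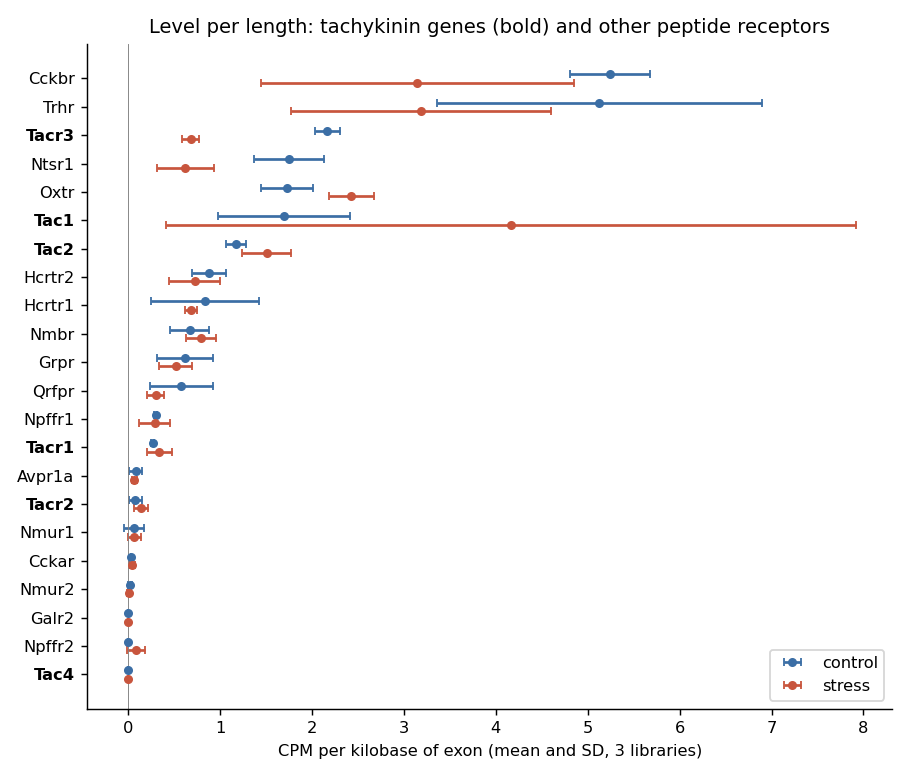
Level in CPM per kilobase of annotated exon for 6 tachykinin genes (bold) and 16 other peptide receptor genes, ordered by the control mean. Points are means and bars SD over 3 libraries, blue for control and red for stress. Tacr3 is at 2.17 in controls and 0.681 in stress, and the bar of Tac1 in stress is the widest.

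None of the other peptide receptor genes passed the all-gene test, which 0.0285% of all tested genes passed. Of the 16, 9 could be tested, 0 were called higher and 0 lower, and the median log2 fold change was -0.27, beside 0.0038 over all tested genes. Ntsr1, the high-affinity neurotensin receptor, was at 7.83, 5.14 and 7.61 CPM in control replicates 1 to 3 and 1.93, 3.85 and 1.56 CPM in stress replicates 1 to 3. Its groups did not overlap, the log2 fold change was -1.48 (SE 0.34) and edgeR's adjusted p was 0.255. Oxtr, the oxytocin receptor, was at 7.47 to 9.86 CPM in controls and 10.5 to 12.8 CPM in stress, with a log2 fold change of 0.50 (SE 0.16) and an adjusted p of 0.450 by edgeR. Cckbr was at -0.73 (SE 0.28), and its groups overlapped.

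Genes for the steps from the receptor into the cell did not pass either, where 0.0285% of all tested genes did. Of 13 Gq signalling genes, all tested, 9 had positive and 4 negative log2 fold changes, with a median of 0.13. Prkcb, a protein kinase C gene, was at 952, 1002 and 1097 CPM in control replicates 1 to 3 and 1530, 1218 and 1269 CPM in stress replicates 1 to 3. This gave a log2 fold change of 0.41 (SE 0.10), and edgeR's adjusted p was 0.308. Gna11, a G protein alpha subunit that tachykinin receptors can use, was at 0.18 (SE 0.074). For both Prkcb and Gna11 the groups did not overlap. Of 8 tested genes that desensitise receptors, Arrb1 for beta-arrestin was at -0.15 (SE 0.070), and the receptor kinase genes Grk6 and Grk5 were at 0.091 and -0.10.

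The machinery that makes and removes the peptides likewise did not pass the threshold, which 0.0285% of all tested genes passed. Of 9 processing and storage genes, all tested, 4 were negative and 5 positive. Pcsk1, a convertase that cuts peptide precursors, was at 39.0 to 46.5 CPM in controls and 29.5 to 37.4 CPM in stress, a log2 fold change of -0.37 (SE 0.11) with an adjusted p of 0.441 by edgeR. Pam, the enzyme that amidates tachykinin endings, was at -0.29 (SE 0.089), and Cpe, a carboxypeptidase of the same pathway, at 0.081 (SE 0.070). Among 7 peptidase genes, Ace, which can cleave substance P, was at 82.2 CPM in stress replicate 1 and 13.1 to 17.0 CPM elsewhere. Its log2 fold change of 1.47 was 0.13 without that library. Dpp4, a peptidase that trims substance P, was at 2.47 to 4.50 CPM in controls and 0.642 to 2.80 CPM in stress, and its groups overlapped. The log2 fold change of Dpp4 was -1.19 (SE 0.47), with an adjusted p of 0.532 by edgeR, and -0.81 without stress replicate 1. Anpep, an aminopeptidase gene, was at -0.53 (SE 0.34), and its groups overlapped too.

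Genes that accompany neurokinin B in hypothalamic reproductive neurons ranged from near 0 to levels above Tac2. Kiss1 had 4 counts over all 6 libraries, and 3 of the 6 genes in that list were tested. Kiss1r, the kisspeptin receptor, averaged 6.14 CPM over controls and 5.07 CPM over stress libraries, a log2 fold change of -0.26 (SE 0.20). Pdyn, the dynorphin precursor, averaged 13.6 CPM over controls and 14.3 CPM over stress libraries, a log2 fold change of 0.094 (SE 0.19). Oprk1, the kappa opioid receptor, was at 0.70 (SE 0.53) on that scale and at -0.056 without stress replicate 1.

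Over the 7 lists, 49 genes were tested by edgeR's quasi-likelihood test, and 0 passed higher and 0 lower. Of all tested genes 0.0285% passed, so the 0 is not read as a result about these genes. At an unadjusted p under 0.05 there were 5 higher and 5 lower, or 20.4%, beside 8.71% of all tested genes. limma voom called 0, and DESeq2 called 3, among them Prkcb higher and Ntsr1 lower. The lists were chosen with earlier results of these data known.

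**Figure D4:**
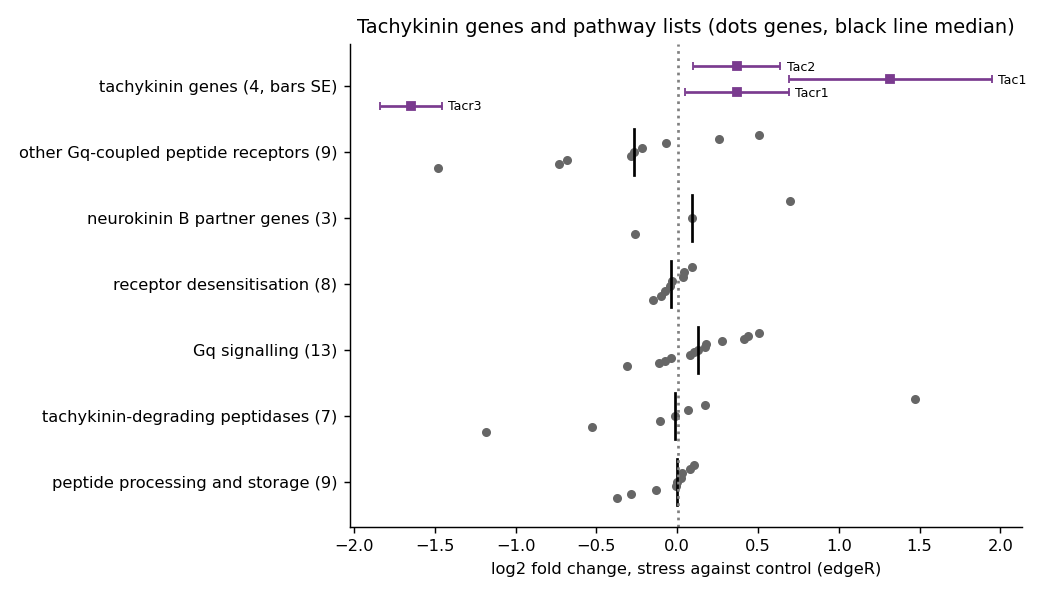
Log2 fold change of stress against control for the 4 tachykinin genes (squares, with SE) and for the tested genes of 6 lists (dots), with list sizes in brackets. Black lines are list medians and the dotted line the median of all tested genes, 0.0038. Tacr3 lies at -1.65, to the left of Ntsr1 at -1.48, while Tac1, Tac2 and Tacr1 lie to the right of 0.

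The genes nearest to Tacr3 in profile over the 6 libraries were Kcns1, Igfbp6, Ddit4l, Myoc and Lad1, at distances of 0.477, 0.550, 0.661, 0.693 and 0.713, against a median of 1.99 over 12497 genes. Kcns1, a silent subunit that modulates Kv2 potassium channels, was at 13.5, 13.4 and 15.9 CPM in control replicates 1 to 3 and 5.67, 5.48 and 6.13 CPM in stress replicates 1 to 3. Lad1, which encodes an anchoring filament protein of epithelia, was at 3.25 to 4.35 CPM in controls and 1.07 to 1.75 CPM in stress. The other members were far from Tacr3, with Tacr1 at 2.39, Tac2 at 2.41 and Tac1 at 3.68. Tacr3 was chosen for its difference between the groups, so genes near it in profile share that difference by construction. Kcns1, Igfbp6 and Ddit4l also passed an adjusted p of 0.05 in the all-gene test by edgeR. The likeness is a description and no result is read from it.

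**Figure D5:**
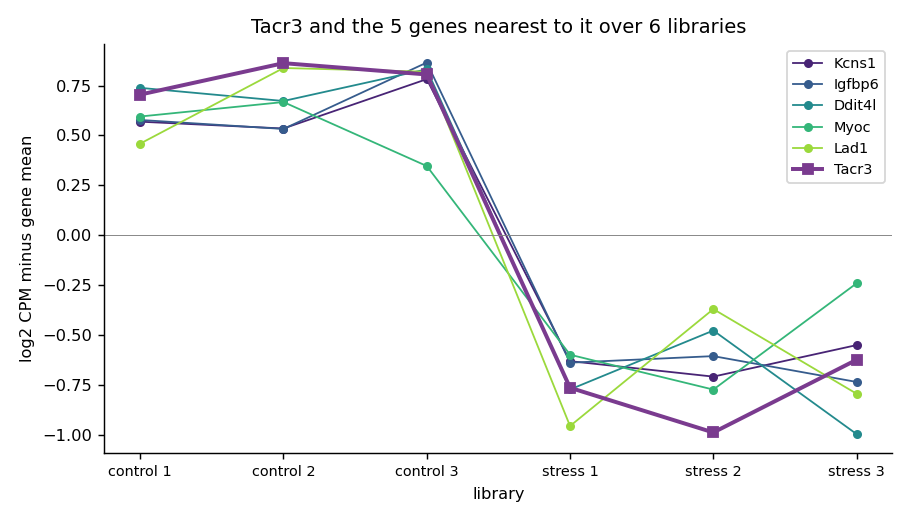
Log2 CPM minus each gene's mean over 6 libraries, for Tacr3 (squares) and the 5 genes nearest to it in profile. Lines join the libraries of one gene and do not stand for time. Tacr3 and the 5 genes lie above 0 in the 3 controls and below 0 in the 3 stress libraries. Tacr3 was chosen for its difference between these groups, so this pattern in its nearest genes follows from that choice.

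Marker lists of neighbouring regions were set beside Tacr3, since it is also made by neurons outside the dentate gyrus. The summed level of 9 thalamic and lateral habenula markers was 392 to 416 CPM in controls and 218 to 310 CPM in stress, so these groups did not overlap. Slc17a6, the vesicular glutamate transporter of subcortical neurons, was at 77.9 to 113 CPM in controls and 13.8 to 50.4 CPM in stress. Gbx2, a thalamic transcription factor, was at 0, 1.29 and 0.965 CPM in control replicates 1 to 3. In stress replicates 1 to 3 it was at 0.107, 0 and 0 CPM. All 8 tested markers of the thalamic and lateral habenula list had negative log2 fold changes, with a median of -0.64. Over all tested genes 49.0% were negative. The sum over 6 hilar mossy cell markers was 330 to 477 CPM in controls and 210 to 316 CPM in stress, and most of it came from Necab1, a calcium-binding protein gene, which was at 196 to 333 CPM in controls and 125 to 197 CPM in stress. Without Necab1, an alternative chosen after seeing the data, the sums were 99.0 to 144 and 85.4 to 135 CPM and overlapped. Of the 6 mossy cell markers, 3 had negative and 3 positive log2 fold changes, with a median of -0.023. Drd2, 1 of the positive markers, is also on the striatal list. It was at 11.9 CPM in stress replicate 1 and 1.07 to 1.87 CPM elsewhere. Calb2, 1 of the negative markers, was at 8.13 CPM in stress replicate 1 and 46.5 to 80.2 CPM elsewhere. Sums over the granule neuron, GABAergic interneuron, CA1 and subicular, CA3, neocortical and entorhinal, medial habenula and striatal lists overlapped between the groups. Those over the choroid plexus list did not, at 25.8 to 27.6 CPM in controls and 29.8 to 4735 CPM in stress. Of all marker genes, 0 passed the all-gene test by edgeR, beside 0.0285% of all tested genes. The part of the thalamic and mossy cell lists in the Tacr3 value was not tested.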

How the data were processed

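RNA of 3 control and 3 stress libraries was analysed from whole-number counts per gene symbol, deposited by the authors as 1 table per library. Per the submitters' processing notes, the tools were edgeR 3.12.0, HTSeq 0.6.1, TopHat2 2.0.9, Trimmomatic 0.33 and FastQC 0.11.3, and the builds mm10 and GRCm38. Annotation and strandedness of the counting are not given in the sources. Reads assigned to no gene (59.5% to 63.1% of those listed) and ambiguous reads (0.211% to 0.253%) were left out.

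CPM was computed on library totals. The 14058 genes that edgeR 4.0.16 keeps by default (filterByExpr) were tested in R 4.3.3 by its quasi-likelihood test, two-sided, with TMM scaling (factors 0.982 to 1.01) and Benjamini-Hochberg adjustment over all genes. SE came from limma 3.58.1 voom. The fit was tested on simulated data. Positions and exon lengths came from GENCODE M21, matched by symbol.

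The members and lists were chosen with earlier results of these data known. Named genes were the members, up to 3 genes per pathway list by smallest p, the 5 nearest profiles to Tacr3 and to Tac1 among genes averaging 1 or more on the log2 CPM scale (prior count 2; no clone or predicted genes, pseudogenes, microRNAs or small nucleolar RNAs), and up to 4 markers per marker list by mean CPM, with markers at 0. 1 gene that the rule takes is not reported here. Kiss1 was named after its values were seen. Alternatives were other scalings and filters, DESeq2 1.42.0, limma voom, a replicate block and leaving out each library.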

Additional observations from a re-analysis of the deposited data

How the results depend on the processing

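Under the 8 alternatives of scaling, filter, tool and block, the log2 fold change ran from -1.66 to -1.64 for Tacr3, 0.29 to 0.37 for Tacr1, 1.01 to 1.33 for Tac1 and 0.35 to 0.38 for Tac2. With each library left out in turn it ran from -1.74 to -1.55 for Tacr3, -0.017 to 0.55 for Tacr1, 0.24 to 1.73 for Tac1 and 0.25 to 0.52 for Tac2. The lowest values of the last 3 were without stress replicate 1. Of all tested genes, 4 were called, 107 by DESeq2 and 1 by limma voom. Leaving out each library in turn gave 0 to 41 calls. Omitting any 1 control, or stress replicate 3, gave 0, omitting stress replicate 2 gave 28 and omitting stress replicate 1 gave 41. Of the pathway genes 0 were called, 3 by DESeq2, and 0 to 0 with each library left out in turn.

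The main fit did not treat libraries with the same replicate number as pairs. Deviations of same-numbered libraries correlated at 0.137, -0.0076 and 0.042, so not every library correlated best with its own number. With 3 libraries per group this cannot exclude pairing. With the replicate block, 0 genes were called and the log2 fold change of Tacr3 was -1.65.

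Of 252 alternative values for 18 named pathway genes, 245 kept direction and side of the threshold, and 3, all under DESeq2 and with Prkcb and Ntsr1 among them, passed it. Signs turned for 3 genes when 1 library was left out. Grk5 ran from -0.27 to 0.056 (without stress replicate 3), Oprk1 from -0.056 (without stress replicate 1) to 1.03, and Pdyn from -0.13 (without stress replicate 1) to 0.22, with -0.010 when control replicate 3 was omitted. The cause was not tested. Tac2 had 12 to 22 counts per library and Tacr1 14 to 30, which limits the precision of both.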
